A study of Homo sapiens with 6 samples.

Results

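Progress through G1, the growth phase before DNA replication, depends on cyclins, the regulatory subunits of cyclin-dependent kinases (CDKs). D-type cyclins activate CDK4 and CDK6 in response to growth signals, and E-type cyclins activate CDK2 at the G1/S border. Both kinds of kinase phosphorylate the retinoblastoma protein, which releases E2F transcription factors. Cip/Kip inhibitors bind cyclin and kinase together, and INK4 inhibitors bind CDK4 and CDK6 and displace the D-type cyclins. In the RNA-seq of MiaPaCa-2 cells under glucose withdrawal, 10 of these genes were followed. They were the D-type cyclins CCND1, CCND2 and CCND3, the E-type cyclins CCNE1 and CCNE2, the Cip/Kip inhibitors CDKN1A (p21), CDKN1B (p27) and CDKN1C (p57), and the INK4 inhibitors CDKN2C (p18) and CDKN2D (p19). The genes were chosen by name, and each of the 10 names matched exactly 1 of the 60668 genes in the deposited table.

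MiaPaCa-2 is an established human pancreatic cancer cell line. Cells were cultured for 48 h with 2.5 mM glucose (low glucose, 3 libraries) or 25 mM glucose (control, 3 libraries), without gene editing or drug, as 3 biological replicates per condition. The treatment text of the labels reads 2.5 mM for all 6 samples, whereas the titles and the design text give 3 of them as controls. The control libraries held 9741183 to 10190154 reads on genes and the low-glucose libraries 10595408 to 13733477. Transcripts of the mitochondrial genome took 2.47% to 3.82% of control reads against 4.65% to 5.12% of low-glucose reads, and their part in the results was not tested. KRT8, KRT18, KRT19 and VIM, which mark an epithelial carcinoma line with mesenchymal features, had at least 2001 reads in every library, whereas EPCAM and CDH1 had at most 1 and 3 reads. KRT7 had 2 to 12 reads, PTPRC and DCN had 0, PECAM1 had at most 3 and COL1A1 at most 14, so defining transcripts of leukocytes, endothelium and fibroblasts were at or near 0. Of the labels, only those of low glucose replicate 1 (10841656 reads) and replicate 2 (10595408 reads) name a column of the table, and the other 4 columns were assigned because the column names form a run of 3 for each condition. Below, values are given library by library in order of depth, so that low glucose replicate 2 comes first, replicate 1 next and the unnumbered low-glucose library of 13733477 reads last.

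Low glucose was accompanied by lower CCND1, CCND3, CCNE2 and CDKN2C mRNA and by higher CCND2, CDKN1A and CDKN1B mRNA. In all, 7 of the 10 genes passed an adjusted p of 0.05 in limma, with 3 higher and 4 lower in low glucose. Among all 21101 genes tested, 30.9% passed (14.7% higher and 16.2% lower). Among the 11831 genes averaging 50 normalized counts or more, where a change is easier to detect, 45.5% passed (18.4% higher and 27% lower). Of the 8 cyclin and inhibitor genes above that level, 6 passed. The 3 control and the 3 low-glucose values did not overlap for 8 of the 10 genes, against 43.9% of all genes tested (22.1% with low glucose higher and 21.8% with low glucose lower). That share was not computed for the genes averaging 50 normalized counts or more, so this comparison is not matched for level. Normalized counts are reads divided by the authors' size factor for each library, and changes are differences of log2(normalized count + 1), so the change of a gene with few reads is understated. Because these are bulk libraries, a smaller share of cells in one cell cycle phase and less RNA per cell cannot be told apart. When scaled by library size, 3932 genes were higher and 2646 lower in place of 3111 and 3417, and the same number of cyclin and inhibitor genes, 3 higher and 4 lower, passed.

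**Figure D1:**
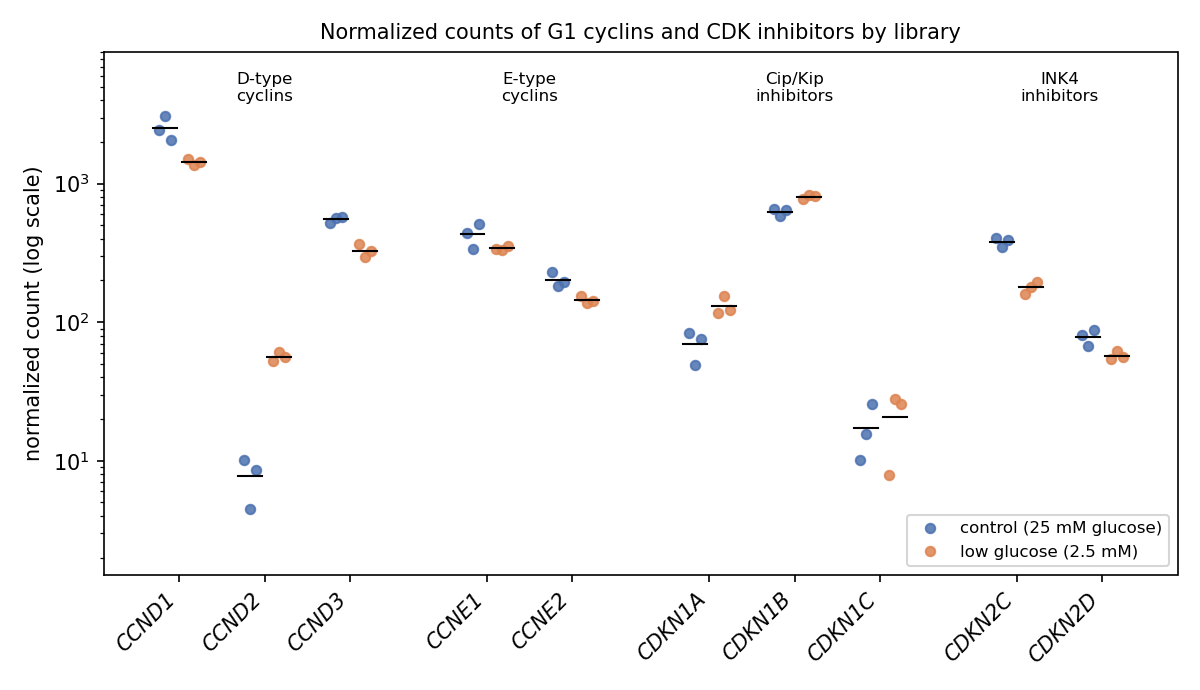
Normalized count (log axis) of each gene in the 3 control libraries (blue, 25 mM glucose) and the 3 low-glucose libraries (orange, 2.5 mM), with the mean of each condition as a black line. CCND2 lies at 4.46 to 10.1 in control and at 52.4 to 60.6 in low glucose, whereas the points of the 2 conditions overlap for CCNE1 and CDKN1C.

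The regulatory sequence of the genes is shown for those that passed the test and have an entry in the RefSeq promoter table (GRCh38.p14). The table has 10 windows for 6 of the 10 genes, CCND3, CCNE1, CDKN1A, CDKN1B, CDKN2C and CDKN2D, and none was used for CCND1, CCND2, CCNE2 and CDKN1C. The 250 bases before each start were searched on both strands for a GC box (GGGCGG, the word bound by SP1), a CCAAT box (CCAAT), an E2F core (TTCCCGC, or with other central bases TTGGCGC, or as a further variant TTCGCGC, or as the last variant searched TTGCCGC), an E-box (CACGTG), a CRE core (TGACG) and a C/EBP-ATF element (TGATGNAAT), and matches may overlap. A GC box was in 8 of the 10 windows and in 42.6% of all 35116 windows of that length. These shares are not matched for the content of G and C, and CCND3 and CDKN2C give 3 windows each. The comparison therefore does not show an enrichment of any word. The CCAAT box was in 5 of the 10 and in 32% of all windows, and the CRE core was in 3 and in 21.2%. The E-box was in 2 of the 10 and in 6.34% of all, and no window of these genes held the C/EBP-ATF element, which 0.888% of all windows held. An E2F core was found in 1 window, the CDKN2C window with its start at 50968706, which held 2, and in 10.9% of all windows. Stretches of 30 bases are printed 5′ to 3′ on the strand of the gene, with the matched words in capitals. The share of G and C in the windows was 64.4% for CDKN1B, 76.4% for CDKN1A, 61.2%, 71.2% and 74.4% for the 3 windows of CCND3, and 45.6%, 48.8% and 77.2% for the 3 windows of CDKN2C, and the stretches below come from the CCND3 window of 71.2% and the CDKN2C window of 77.2%.
CDKN2C, GC boxes, chr1:50968635-50968664, plus strand: agcaGGGCGGaGGGCGGggcgtGGGCGGcg
CDKN2C, E2F core, chr1:50968563-50968592, plus strand: ggagagcgggagGCGGGAAtgagggcgcgg
CDKN1A, GC boxes, chr6:36678603-36678632, plus strand: ccggggaGGGCGGtcccGGGCGGcgcggtg
CDKN1B, CCAAT box, chr12:12717181-12717210, plus strand: gtcacgcgaccagCCAATctcccggcggcg
CCND3, GC box, chr6:41941861-41941890, minus strand: ggcgccgcagccCCGCCCctcggagcgttg
These matches describe the letters before the starts of genes that fell (CDKN2C and CCND3) and rose (CDKN1A and CDKN1B), and GC boxes were present in at least 1 window of each of the 4.

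Of the D-type cyclins, all 3 passed, in opposite directions. CCND1 encodes cyclin D1, the D-type cyclin most often found at high levels in carcinomas, and is found at 69641156 to 69654474 of chromosome 11 (hg38, plus strand). Its normalized count was 2453, 3080 and 2060 in the control libraries and 1501, 1360 and 1434 in the low-glucose libraries. Every low-glucose library was below every control library. The mean was 2531 ± 514 (SD, n = 3) in control and 1431 ± 70.2 (SD, n = 3) in low glucose, a level 1.77-fold lower. This was a log2 fold change of -0.80 (standard error, SE, 0.115 and adjusted p = 1.10e-04 in limma). The spread of CCND1 was wider in control (coefficient of variation 20.3%) than in low glucose (4.90%), and the change was -0.65 without the control library of 10126218 reads, in which CCND1 was highest, and -0.94 without that of 10190154 reads, in which it was lowest. CCND1 shares 497 bp of exon with LTO1 on the opposite strand. LTO1 had 34.2% of the normalized counts of CCND1 and a log2 fold change of -0.26 (limma adjusted p = 0.0249), so reads of the overlap may be shared if the counting did not use strand, which the methods do not state.

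CCND3 encodes cyclin D3 and spans 115424 bp on the minus strand of chromosome 6 (41934934 to 42050357), where the antisense lncRNA ENSG00000223946 shares 24 bp of exon with it and had 0 reads. Normalized counts of CCND3 were 524, 563 and 570 in control and 366, 296 and 325 in low glucose, without overlap. The means were 552 ± 25.1 (SD, n = 3) and 329 ± 35.3 (SD, n = 3), which is 1.68-fold lower in low glucose. Its log2 fold change of -0.75 (SE 0.0988 and adjusted p = 5.56e-05 in limma) stood beside -0.80 for CCND1. The log2 ratio of CCND3 to CCND1 in each library was -2.18 ± 0.303 (SD, n = 3) in control and -2.12 ± 0.0834 (SD, n = 3) in low glucose, a difference of 0.054 (exact permutation p = 0.8, two-sided), which is smaller than the spread between replicates and changed its sign, to -0.083, without the control library of 10126218 reads.

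CCND2 encodes cyclin D2, a D-type cyclin with a tissue-restricted expression, and lies on the plus strand of chromosome 12 (4269771 to 4305353). It had 9, 4 and 8 reads in the control libraries and 53, 63 and 74 in the low-glucose libraries. In normalized counts this was 10.1, 4.46 and 8.56 in control and 52.4, 60.6 and 56.1 in low glucose, and the lowest low-glucose value exceeded the highest control value by 42.3. The mean rose from 7.70 ± 2.91 (SD, n = 3) to 56.3 ± 4.13 (SD, n = 3). The log2 fold change of 2.78 (SE 0.322 and adjusted p = 1.75e-05 in limma, 95% interval 2.09 to 3.47) was exceeded by 52 of the 21101 genes tested. The log2 ratio of CCND2 to CCND1 was -8.23 ± 0.791 (SD, n = 3) in control and -4.64 ± 0.175 (SD, n = 3) in low glucose, a difference of 3.58 with no overlap between conditions. The two-sided exact permutation p was 0.1, which is the smallest value this number of libraries can give, and 0.167 after Benjamini-Hochberg adjustment over the 5 pairs of genes compared. CCND2-AS1, an antisense RNA that shares 162 bp of exon with CCND2, rose as well. Its reads per library numbered 0 to 3 in control against 12 to 25 after glucose withdrawal, a log2 fold change of 2.92 (SE 0.566 and adjusted p = 0.00128 in limma). Without a stated strand setting the reads of the 2 genes cannot be told apart in the overlap. ENSG00000285901, which shares 999 bp of exon with CCND2 on the same strand, had 0 reads, and the antisense lncRNA ENSG00000290063, which shares 106 bp, was not analysed here.

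**Figure D2:**
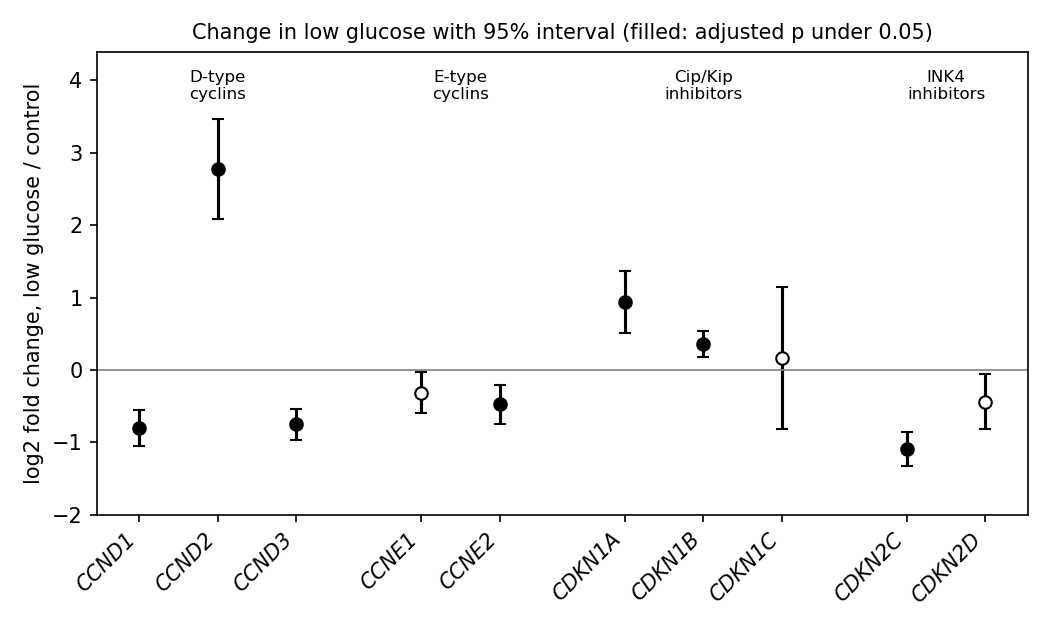
Log2 fold change of each gene (low glucose over control, vertical axis) with its 95% interval from limma over 3 libraries per condition, with filled points for an adjusted p under 0.05 and open points otherwise. CCND2 stands at 2.78, apart from CCND1 at -0.80 and CCND3 at -0.75, and the interval of CDKN1C, from -0.82 to 1.14, spans 0.

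Of the E-type cyclins, CCNE2 fell and CCNE1 did not pass the test. CCNE2, which encodes cyclin E2, lies on the minus strand of chromosome 8 (94879770 to 94896678). The control libraries held 231, 184 and 194 normalized counts and the low-glucose libraries 155, 139 and 142, without overlap, with means of 203 ± 24.8 (SD, n = 3) and 145 ± 8.80 (SD, n = 3). CCNE2 changed by -0.48 on the log2 scale (SE 0.126 and adjusted p = 0.0103 in limma). The call was lost without the control library of 9741183 reads (0.0614) and without low glucose replicate 1 (0.0566), and over all 16 alternatives the limma, edgeR or DESeq2 adjusted p was 0.00143 to 0.0614. INTS8, on the opposite strand, shares 1629 bp of exon with CCNE2 and had 305% of its normalized counts, at a log2 fold change of -0.019 (limma adjusted p = 0.893). ENSG00000272509, an lncRNA that shares 4 bp of exon, had 9 to 18 reads per library.

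CCNE1 encodes cyclin E1 and lies on the plus strand of chromosome 19 (29811991 to 29824312). For CCNE1, the normalized count was 441, 335 and 516 in control and 335, 332 and 358 in low glucose. The control library of 10126218 reads lay among the low-glucose libraries and the other two controls lay above them. The means were 431 ± 90.5 (SD, n = 3) and 341 ± 14.1 (SD, n = 3), with a log2 fold change of -0.31 (SE 0.130 and adjusted p = 0.0842 in limma, 95% interval -0.59 to -0.034). Without the control library of 10126218 reads the change was -0.48 and passed (limma adjusted p = 1.72e-04), and the other 15 alternatives gave 0.0708 to 0.271. The log2 ratio of CCNE2 to CCNE1 was -1.07 ± 0.297 (SD, n = 3) in control and -1.23 ± 0.114 (SD, n = 3) in low glucose, a difference of -0.16 that was within the spread (exact permutation p = 0.4, two-sided). It was therefore not shown that the 2 E-type cyclins changed by different amounts.

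Of the Cip/Kip inhibitors, CDKN1A and CDKN1B rose and CDKN1C did not pass. CDKN1A encodes p21, a target of p53 that is also induced by stress without p53, and lies on the plus strand of chromosome 6 (36676460 to 36687337). CDKN1A stood at 83.0, 49.0 and 76.0 normalized counts in control and at 117, 156 and 123 in low glucose. The low-glucose libraries were all above the controls, and low glucose replicate 1 was the highest. The mean rose 1.90-fold, from 69.3 ± 17.9 (SD, n = 3) to 132 ± 21.1 (SD, n = 3), with a log2 fold change of 0.94 (SE 0.199 and adjusted p = 0.00239 in limma). It was between 0.71 and 1.08 with 1 library left out, and passed each time. Of the 21101 genes tested, 2333 had a larger log2 fold change. DINOL, an antisense RNA that overlaps 146 bp of its exons, had 0 reads.

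CDKN1B encodes p27, which accumulates in quiescent cells and is removed by ubiquitin ligases at the G1/S border. It lies on the plus strand of chromosome 12 (12685498 to 12722369). Normalized counts were 655, 584 and 644 in control and 773, 824 and 811 in low glucose, without overlap and with the narrowest spread among the 10 genes in low glucose (coefficient of variation 3.28%). The mean was 628 ± 38.1 (SD, n = 3) in control and 803 ± 26.3 (SD, n = 3) in low glucose, 1.28-fold higher. Its change was 0.36 on the log2 scale (SE 0.0824 and adjusted p = 0.00433 in limma), with a 95% interval of 0.18 to 0.53. The log2 ratio of CDKN1B to CDKN1A was 3.19 ± 0.311 (SD, n = 3) in control and 2.61 ± 0.185 (SD, n = 3) in low glucose, without overlap and with an exact permutation p of 0.1 (two-sided, 0.167 adjusted over 5 pairs).

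CDKN1C encodes p57, an imprinted inhibitor, and lies on the minus strand of chromosome 11 (2883213 to 2885775). It had 9, 14 and 24 reads in control and 8, 29 and 34 in low glucose. The normalized counts of 10.1, 15.6 and 25.7 in control and 7.90, 27.9 and 25.8 in low glucose overlapped, and low glucose replicate 2 held the lowest value of all 6 libraries. The log2 fold change was 0.16 (SE 0.458 and adjusted p = 0.826 in limma), and its 95% interval of -0.82 to 1.14 does not exclude a change of the size seen for CDKN1A.

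Of the INK4 inhibitors, CDKN2C fell and CDKN2D did not pass. CDKN2C encodes p18 and lies on the plus strand of chromosome 1 (50960745 to 50974634). CDKN2C had 402, 349 and 393 normalized counts in control and 161, 180 and 195 in low glucose, so all low-glucose libraries were below all controls. The mean was 381 ± 28.5 (SD, n = 3) in control and 179 ± 16.9 (SD, n = 3) in low glucose, 2.14-fold lower. The log2 fold change of -1.09 (SE 0.111 and adjusted p = 5.61e-06 in limma) was the largest fall among the 10 genes, and 478 genes of all those tested fell by more. With 1 library left out it stayed between -1.16 and -1.02. The E2F core printed above was in 1 of the 3 CDKN2C windows, against 10.9% of all windows, and its part in the fall was not tested. A further lncRNA on the opposite strand, ENSG00000290102, shares 617 bp of exon with CDKN2C in the annotation and was not analysed here.

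CDKN2D encodes p19 and lies on the minus strand of chromosome 19 (10566460 to 10569059). Its normalized count was 80.7, 66.9 and 87.7 in control and 54.3, 61.6 and 56.1 in low glucose, which did not overlap although 61.6 and 66.9 lie close. The means were 78.4 ± 10.6 (SD, n = 3) and 57.3 ± 3.78 (SD, n = 3). The log2 fold change of -0.44 (SE 0.178 and adjusted p = 0.0761 in limma) did not pass, whereas it passed without the control library of 10126218 reads (-0.55, 0.0282) and after quantile normalization (-0.61, 0.0164). The highest adjusted p among its 16 alternatives was 0.195. The log2 ratio of CDKN2D to CDKN2C was -2.27 ± 0.111 (SD, n = 3) in control and -1.62 ± 0.137 (SD, n = 3) in low glucose, with no overlap (exact permutation p = 0.1, two-sided, 0.167 adjusted over 5 pairs).

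In both conditions, 1 library held the lowest value for most of these genes. In low glucose this was replicate 2, lowest for 6 of the 10 genes, whereas the library of 13733477 reads was lowest for 0. Among the controls it was the library of 10126218 reads. It had the lowest control value for 7 of the 10 genes (CCND2, CCNE1, CCNE2, CDKN1A, CDKN1B, CDKN2C and CDKN2D) and the highest for CCND1. Its mitochondrially encoded share was the highest of the controls (3.82%). Whether this library stood apart from the other controls was not tested. Without it, 9 of the 10 genes passed, 3 higher and 6 lower, the additions being CCNE1 and CDKN2D. More genes passed over the whole set as well, 7251 of 21141 tested against 6528 of 21101 with all libraries. Without the control library of 10190154 reads, 7224 of 21182 passed. With the reads of each library thinned to the depth of the smallest, 7 genes passed, as in the full data.

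**Figure D3:**
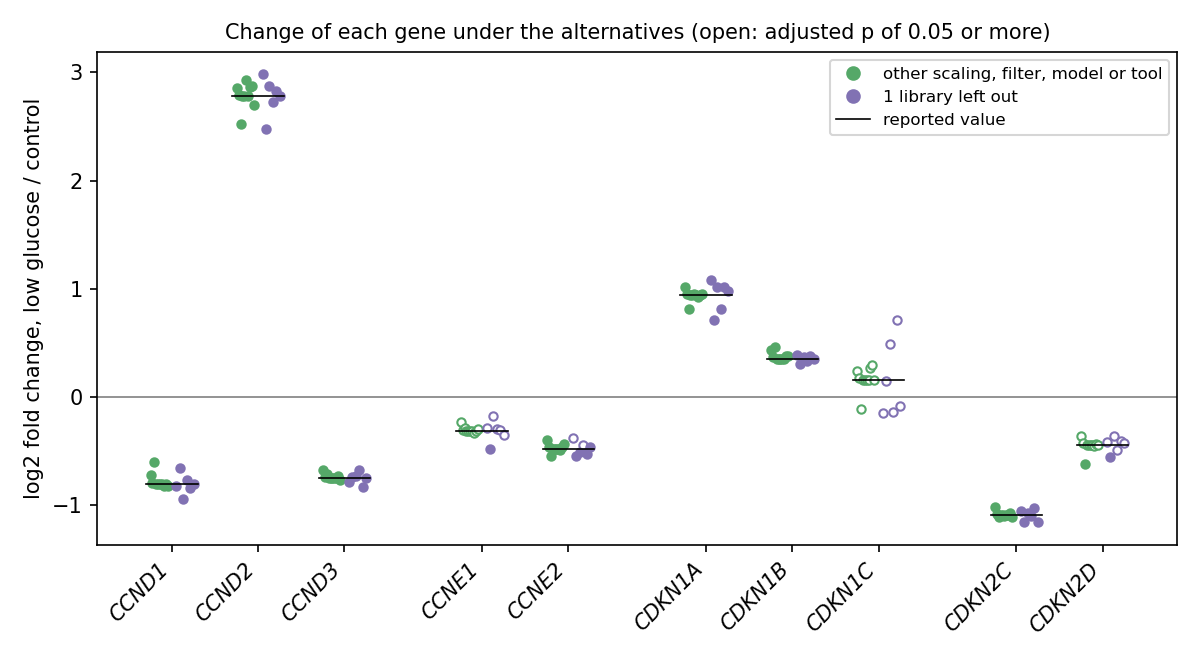
Log2 fold change of each gene (vertical axis) under 10 other choices of scaling, filter, model or tool (green) and with each of the 6 libraries left out (purple), with open points where the adjusted p was 0.05 or more and a black line at the reported value. All points of CCND1, CCND2, CCND3, CDKN1A, CDKN1B and CDKN2C are filled and on 1 side of 0, and those of CDKN1C are open and lie on both sides.

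Levels of different genes were compared as TPM, computed from the recovered reads and the summed length of all annotated exons of a gene. In control, CCND1 was the most abundant of the 10 transcripts at 160 ± 32.4 TPM (SD, n = 3), and CCND2 the least at 0.291 ± 0.113 TPM (SD, n = 3). Between them, in falling order, stood CCNE1 (52.8 TPM), CDKN2C (38.1 TPM), CCND3 (28.9 TPM), CDKN1B (20.5 TPM), CDKN2D (15.7 TPM), CCNE2 (13.9 TPM), CDKN1A (6.99 TPM) and CDKN1C (2.07 TPM). Of these neighbours, the control libraries overlapped for CCNE1 and CDKN2C and for CDKN2D and CCNE2. In low glucose CCND1 stayed first at 86.8 ± 3.63 TPM (SD, n = 3) and CCNE1 second at 40.1 TPM. CDKN1B came next (25.1 TPM), followed by CDKN2C (17.1 TPM), CCND3 (16.5 TPM), CDKN1A (12.7 TPM), CDKN2D (11 TPM), CCNE2 (9.53 TPM), CDKN1C (2.40 TPM) and CCND2 (2.04 TPM). There, CDKN2C overlapped CCND3, CCND3 overlapped CDKN1A, CDKN1A overlapped CDKN2D, and CDKN1C overlapped CCND2. The order depended on the length used. With the longest transcript of each gene as its length, CCND3 (52.4 TPM) and CCNE1 (50 TPM) followed CCND1 in control and overlapped, and CDKN1B (32.9 TPM) and CDKN2C (29.8 TPM) came after them and overlapped. In low glucose CDKN1B (41.1 TPM) and CCNE1 (38.8 TPM) then followed CCND1 and overlapped, ahead of CCND3 (30.5 TPM) and CDKN2C (13.6 TPM). CCND1 was the most and CCND2 the least abundant with either length.

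Summed over the genes followed in each class, the D-type cyclins went from 189 ± 32.2 TPM (SD, n = 3) in control to 105 ± 5.05 TPM (SD, n = 3) in low glucose, and the E-type cyclins from 66.7 ± 11.8 TPM to 49.6 ± 1.87 TPM. The Cip/Kip inhibitors went from 29.5 ± 3.32 TPM to 40.2 ± 4.17 TPM. The INK4 inhibitors, here CDKN2C and CDKN2D only, went from 53.8 ± 5.16 TPM to 28.1 ± 2.26 TPM. Other INK4 genes were not followed, so whether they added to INK4 mRNA is not known from these values. In each class the 3 low-glucose sums lay outside the range of the 3 control sums, and of single genes tested 43.9% did not overlap. Each sum was mostly 1 gene. In control this was CCND1 (84.3%), CCNE1 (78.8%), CDKN1B (69.6%) or CDKN2C (70.9%), and CCNE1 alone overlapped between conditions in normalized counts. The E-type cyclin sums came closest, with 53.3 TPM in the lowest control library and 51.7 TPM in the highest low-glucose library. The levels depended on the length used. With the longest transcript as length, the Cip/Kip sum was 41.8 TPM in control and 56.3 TPM in low glucose. The INK4 sum was then 42.3 TPM and 22.6 TPM.

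Within the D-type cyclins, CCND1 made up 84.3% ± 2.84 (SD, n = 3) of the summed TPM in control and 82.4% ± 0.565 in low glucose, and the libraries overlapped in this share. The share of CCND2 was 0.161% ± 0.0749 in control and 1.94% ± 0.250 in low glucose, so that despite its rise it remained the smallest part of the class. CCND3, at 15.6% in both conditions, has a long exon union, and with the longest transcript as length its share was 28.2% in control and 28.4% in low glucose. Among the Cip/Kip inhibitors, the share of CDKN1A was 23.4% ± 4.01 in control and 31.5% ± 2.38 in low glucose, and CDKN1B remained the largest with 69.6% and 62.7%. With the longest transcript as length, the share of CDKN1A was 16.4% in control and 22.8% in low glucose, and that of CDKN1B 78.8% and 73.1%. In the sum of CDKN2C and CDKN2D, the share of CDKN2C was 70.9% ± 1.63 in control and 60.8% ± 2.27 in low glucose.

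The ratio of summed D-type cyclins to summed Cip/Kip inhibitors was 5.93, 8.69 and 5.06 in the control libraries and 3.07, 2.26 and 2.62 in the low-glucose libraries. The ratio of E-type cyclins to Cip/Kip inhibitors was 2.25 ± 0.166 (SD, n = 3) in control and 1.24 ± 0.139 in low glucose. That of D-type cyclins to INK4 inhibitors was 3.25, 4.66 and 2.83 in control and 4.31, 3.43 and 3.58 in low glucose, and overlapped between conditions. These ratios cover only the genes followed here, used the exon union as length and were not computed with the longest transcript. They are ratios of mRNA levels and say nothing of the amounts of protein.

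**Figure D4:**
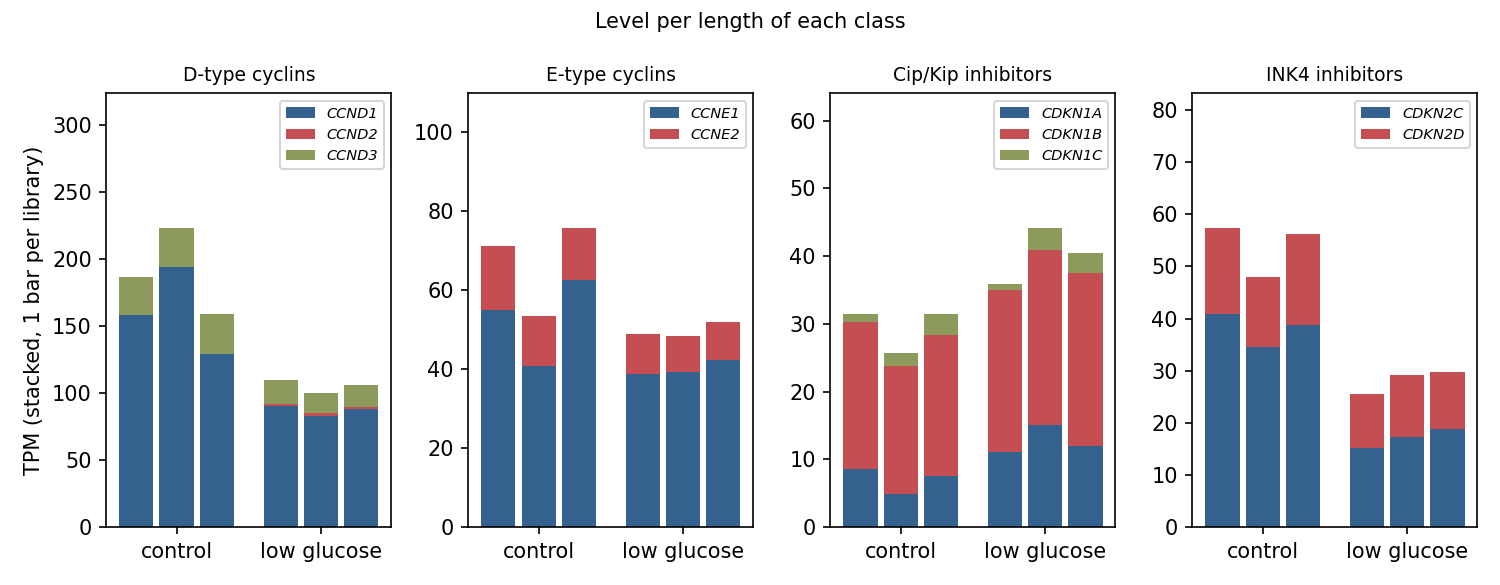
TPM of the D-type cyclins, E-type cyclins, Cip/Kip inhibitors and INK4 inhibitors (vertical axes from 0, with a scale for each panel), stacked by gene with 1 bar per library, controls on the left and low glucose on the right of each panel. The Cip/Kip bars are higher in low glucose (mean 40.2 TPM against 29.5 TPM), and the bars of the other classes are lower, with CCND2 visible only as a thin layer at 2.04 TPM.

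Other genes of G1 control were taken from 5 lists set by role, 72 genes in all, each of which was tested. The lists were chosen with earlier results of these data known, so their counts only describe the genes listed. Of them, 69 average 50 normalized counts or more, a level at which 45.5% of all genes passed. Of the 11 G1 and G1/S kinases and their activators, 1 rose and 4 fell, which is 45.5% of the list and the same as that background (median log2 fold change -0.18, against 0.049 over the 21101 genes tested and -0.053 over those averaging 50 or more). CDK6, a partner of the D-type cyclins, rose by a log2 value of 0.51 (SE 0.106 and adjusted p = 0.00204 in limma), from 294 ± 35.8 to 419 ± 24.8 normalized counts (SD, n = 3). CDK4, the other such partner, named here after its value was seen, had a log2 fold change of -0.18 (limma adjusted p = 0.134). CDC25A, the phosphatase that activates CDK2, had a log2 fold change of -1.31 (limma adjusted p = 4.84e-07), and CCNA2, the S phase cyclin, one of -1.24 (limma adjusted p = 2.21e-07). The mean of CDC25A was 481 normalized counts in control and 193 in low glucose, and that of CCNA2 was 1406 and 594.

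Of the 16 ubiquitin ligases and partners that act on G1 cyclins and inhibitors, 1 rose and 8 fell, 56.3% against the background of 45.5% (median -0.32). SKP2, the F-box protein that targets p27, had a log2 fold change of -1.25 (limma adjusted p = 3.29e-07), from 746 ± 70.8 to 312 ± 6.53 normalized counts (SD, n = 3). DTL, which targets p21 during S phase, was 1.99-fold lower, at 1005 ± 34.5 and 504 ± 32.1 normalized counts (SD, n = 3, limma adjusted p = 9.46e-07). FBXW7, which targets cyclin E, rose by 0.39 (limma adjusted p = 0.0499), a call that 10 of the 16 alternatives did not share (up to 0.212).

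Of 16 other p53 target genes, 5 rose and 2 fell, 43.8% against the background of 45.5% (median 0.10, beside a log2 fold change of 0.94 for CDKN1A). GADD45A, a stress-induced partner of PCNA and p21, rose by 1.98 (limma adjusted p = 5.15e-08), from 608 ± 123 to 2377 ± 185 normalized counts (SD, n = 3), and PLK3, a stress-responsive kinase, by 1.08 (limma adjusted p = 8.29e-06). ZMAT3 had a log2 fold change of -0.45 (limma adjusted p = 0.0131, but 0.0840 without low glucose replicate 1 and 0.0618 without a variance trend), and PLK2 one of -0.36 (limma adjusted p = 0.00215). MDM2, the ubiquitin ligase of p53, named here after its value was seen, had one of 0.18 (limma adjusted p = 0.301).

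Of the 16 G1/S genes under E2F control, 16 fell, against 27% of all genes averaging 50 or more (median -0.97, range -1.24 to -0.26). Because the list was chosen with earlier results known and its genes are not independent of each other, this count is no independent support. MCM4 and MCM5, subunits of the replicative helicase, had log2 fold changes of -1.24 and -1.19 (limma adjusted p = 1.94e-07 and 6.11e-07). MCM4 went from 4245 ± 367 to 1799 ± 138 and MCM5 from 1777 ± 73.7 to 780 ± 103 normalized counts (SD, n = 3). CCNE1 and CCNE2, themselves known E2F targets, had changes of -0.31 and -0.48, and CDKN2C, also known as an E2F target, one of -1.09. The part of E2F in these changes was not tested. Of the 13 regulators of CDK inhibitor and D-type cyclin transcription, 5 rose and 4 fell, 69.2% against the background of 45.5% (median 0.24). KLF4, which activates CDKN1A, and FOXO3, which activates CDKN1B, rose by 0.80 and 0.61 (limma adjusted p = 2.75e-05 and 3.61e-04). STAT3 and CTNNB1, which activate CCND1, had log2 fold changes of -0.70 and -0.66 (limma adjusted p = 3.50e-05 and 8.46e-04), and the call for CTNNB1 was lost without a variance trend (0.0571). JUN, which also activates CCND1 and is named here after its value was seen, rose by 0.30 (limma adjusted p = 0.00621). The other regulators past the threshold are also named after their values were seen. MYC and KLF6 rose by 0.45 and 0.43 (limma adjusted p = 3.97e-04 and 3.34e-04). SP1, which binds the GC box, and ZBTB17 had log2 fold changes of -0.31 and -0.32 (limma adjusted p = 0.0436 and 0.0254). Whether any regulator acted on these genes was not tested.

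**Figure D5:**
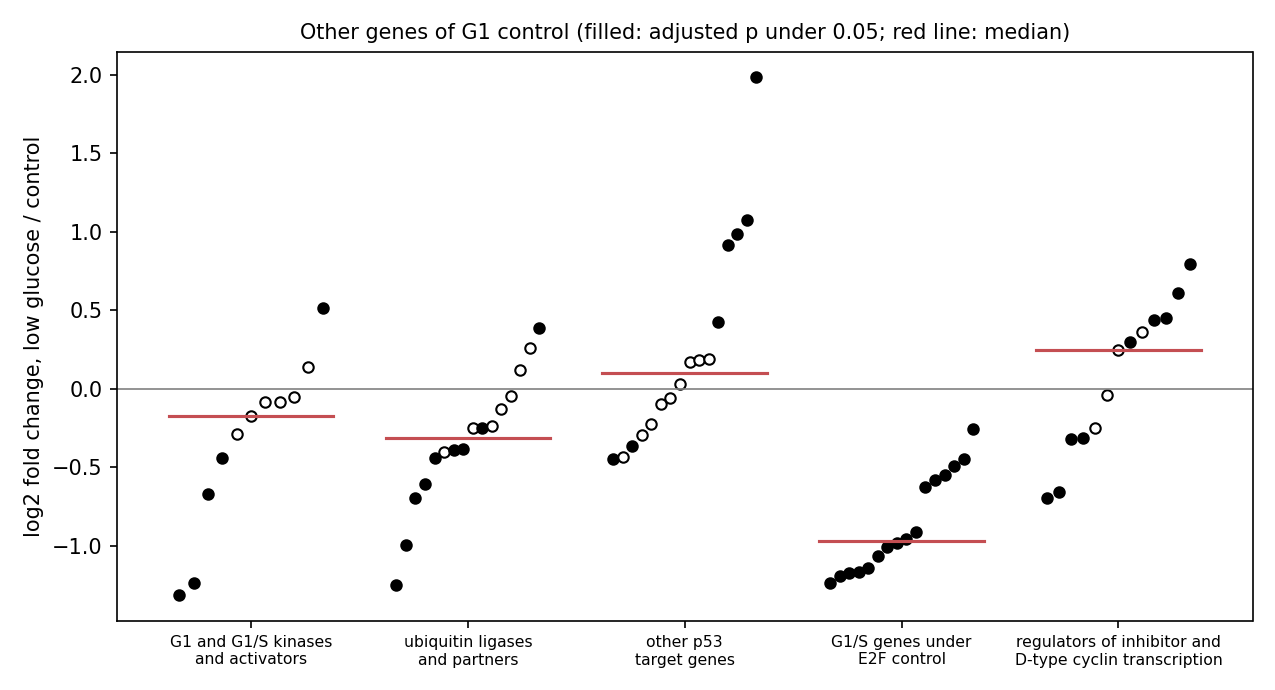
Log2 fold change (low glucose over control, vertical axis) of the 72 genes in 5 lists, ordered by value within each list, with filled points for a limma adjusted p under 0.05 and a red line at the median of the list. All 16 G1/S genes under E2F control lie below 0, whereas the p53 targets reach from -0.45 to 1.98.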

How the data were processed

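Strand-specific libraries of MiaPaCa-2 total RNA (3 low glucose, 3 control) were sequenced by the authors as paired ends, trimmed with Trim Galore and mapped to hg38 with STAR 2.7.0e. RSEM is in the study's software list, but which tool gave these counts, its strand setting and the annotation are not given in the sources used here. The authors deposited a count-scale signal, namely gene counts divided by 1 size factor per library. In every library 100% of the values above 0 were whole multiples (within 0.01 read) of 1 step, so whole reads were recovered, and the reciprocals of the steps equalled median-of-ratios size factors over 17906 genes. Identifiers were matched to Gencode v44 (99.4%).

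Because the values are not raw counts, limma 3.58.1 in R 4.3.3 was fitted (trend, two-sided) on the log2 scale after adding 1, over 21101 genes whose mean reached 1, with Benjamini-Hochberg adjustment over all of them and a threshold of 0.05. Alternatives were other scalings, filters, a pseudocount of 0.1, no variance trend, DESeq2 1.42.0 and edgeR 4.0.16 on the recovered reads (limma was first tested on simulated data), thinned reads and each library left out. Ratios used exact permutation tests (SciPy 1.17.1). Depth was 9741183 to 13733477 reads per library, and 3 libraries per condition set the precision. The genes and lists were chosen with earlier results of these data known. All 10 cyclin and inhibitor genes were named, with the 2 genes per list that rose most and the 2 that fell most past the threshold, and genes overlapping their exons. Other list genes, named after their values were seen, are marked where they appear.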

Additional observations from a re-analysis of the deposited data

How the results depend on the processing

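The 7 calls among the cyclin and inhibitor genes held under all 10 alternatives that kept all libraries, and quantile normalization added CDKN2D. Without a variance trend some held only narrowly, with a limma adjusted p of 0.0498 for CCNE2, 0.0498 for CDKN1B and 0.0491 for CDKN1A. With 1 library left out, 6 to 9 genes passed (3 higher each time and 3 to 6 lower), and 35 to 53 of the 72 other genes of G1 control passed over all alternatives, against 46. Those numbers with 1 library left out were 38 to 53 in all, 10 to 14 higher and 28 to 39 lower. Over all genes, 4090 passed without a variance trend and 4319 without low glucose replicate 1, against 6528. Without the control library of 10126218 reads, 7251 passed. CDKN1C, not called in any fit, changed its sign after quantile normalization (-0.11) and without the control library of 9741183 reads (-0.15), low glucose replicate 1 (-0.14) or the low-glucose library of 13733477 reads (-0.084) (range with 1 library left out, -0.15 to 0.71), and the cause was not tested. With 1 library left out, the log2 ratio of summed TPM was -0.96 to -0.71 for D-type cyclins, -0.56 to -0.33 for E-type cyclins, 0.35 to 0.52 for Cip/Kip inhibitors and -1.02 to -0.87 for INK4 inhibitors. The differences in log2 ratio then were 3.13 to 3.82 (CCND2 to CCND1), -0.083 to 0.22 (CCND3 to CCND1), -0.33 to -0.061 (CCNE2 to CCNE1), -0.70 to -0.41 (CDKN1B to CDKN1A) and 0.61 to 0.73 (CDKN2D to CDKN2C). No paired analysis was possible because replicate numbers are known for 2 libraries only, both low glucose. CCND2 in control and CDKN1C rest on 4 to 34 reads per library, which limits their precision.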
